A study of Mus musculus with 60 samples.

Results

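The tagged histone H3R26C was compared with tagged H3WT by its anti-HA peaks in C3H 10T1/2, a line of mesenchymal progenitors from mouse. The 6 anti-HA samples of these genotypes, of 60 samples in the series, were chosen by their titles. Replicates 1 and 2 of each genotype had peak lists with identical values and were counted once, which left 4 libraries, called here H3WT 1+2, H3WT 3, H3R26C 1+2 and H3R26C 3. Values below are given in that order. All cells were a puromycin-selected stable pool carrying a lentiviral transgene for human histone H3.1 with HA and FLAG tags at its C terminus under the EF1 promoter, wild type in H3WT and with arginine 26 changed to cysteine in H3R26C. The endogenous H3 genes were intact in both groups, so the tagged histone was added to the cell's own H3. The 6 anti-HA libraries of H3R2C, H3R8C and H3R17C, which carry the same transgene with another arginine of the tail changed to cysteine, served as a comparison. Libraries made with IgG or against H3K4me3 were not used, and the peak lists hold no reads of the transgene that would check the genotype.

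Histone H3 is wrapped by DNA in every nucleosome, and its N-terminal tail carries the modifications that mark active and silent chromatin. Arginine 26 lies next to lysine 27, which Polycomb Repressive Complex 2 (PRC2) methylates to H3K27me3, a mark of silenced developmental genes. H3.1 is built into chromatin mainly during DNA replication, along the whole genome, so that a tag on it is not tied to one class of genes. In CUT&RUN an antibody, here against the HA tag, brings a DNA-cutting enzyme to the tagged nucleosomes and the fragments it frees are read out. A peak is a stretch of coverage that the peak caller kept. The caller keeps a top share of the stretches of each library, so it partly sets the number of peaks. In a bulk sample, fewer cells with the transgene and fewer tagged nucleosomes per cell cannot be told apart.

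The peak lists of the 2 genotypes differed in kind before any gene was looked at, and H3WT 1+2 stood apart from the rest. H3WT 1+2 had 15344 peaks, of median width 10.7 kb, and H3WT 3 had 37907, of median width 2.65 kb. H3R26C 1+2 and H3R26C 3 had 49586 and 48820 peaks, 1.10 and 1.05 kb wide at the median. The H3R26C lists thus held many narrow peaks and the H3WT lists fewer wide ones, and the 6 libraries of the other mutants, with 46398 to 52083 peaks of 0.800 to 1.60 kb, were like H3R26C. Peaks covered 213 and 135 Mb in H3WT and 64.4 and 60.5 Mb in H3R26C. The lowest total signal of a listed peak, coverage summed over its bases and not scaled to depth, was 43200 and 6300 in H3WT and 1950 and 1850 in H3R26C. A stretch without a peak lay below that level and was not measured as 0. The reporting summary of the study gives more reads for each H3WT anti-HA sample than for the H3R26C sample of the same number. H3WT replicate 1 had fewer than H3R26C replicate 2, but these 2 samples share a list with others. With replicate 1, or replicate 2, as source of the shared list in both genotypes, both H3WT libraries had more reads than both H3R26C libraries. Depth and genotype therefore cannot be told apart in these lists. The part of depth in the differences between the lists was not tested.

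**Figure D1:**
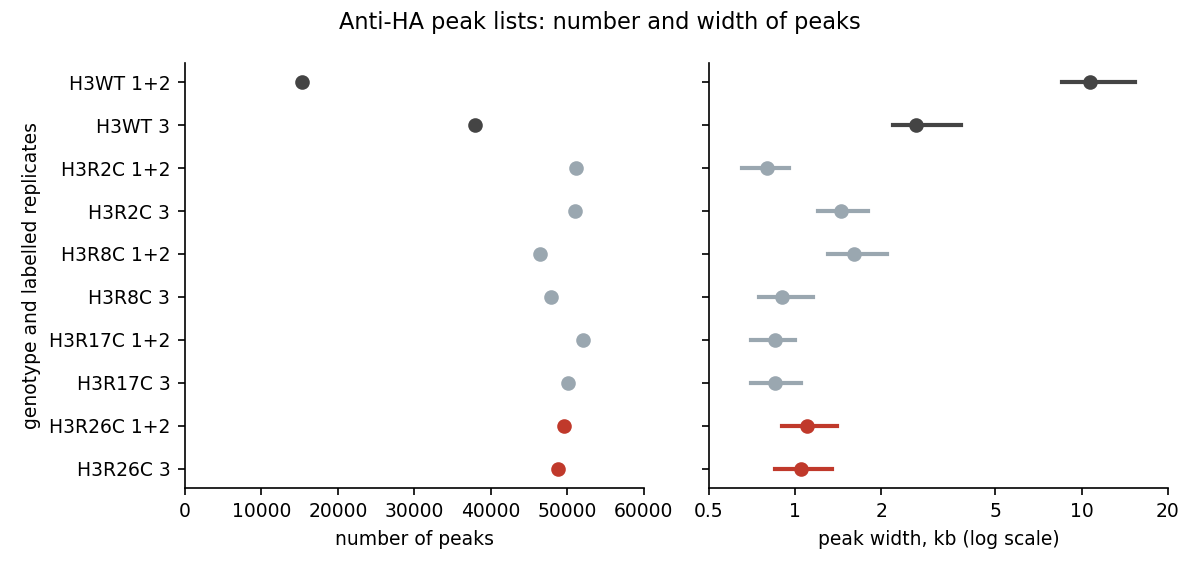
Number of peaks (left) and peak width in kb on a log scale (right, point at the median and line from the lower to the upper quartile) in each anti-HA library, H3WT in black, H3R26C in red and the other mutants in grey. The 2 H3R26C libraries had 49586 and 48820 peaks with medians near 1 kb, and H3WT 1+2 had 15344 peaks with a median of 10.7 kb.

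The strongest peaks were shared by both genotypes. The 18 places where the maximum coverage passed 1000 in any library had a peak in all 10 anti-HA libraries. The peaks of a library that themselves passed 1000 numbered 18 and 16 in H3WT and 15 and 13 in H3R26C, and they held 40.7 and 48.3% of the total signal in H3WT and 53.5 and 54.0% in H3R26C. In the places whose sequence was read, 9.56 to 95.7% of the bases were soft-masked as repeats in the genome sequence. In every library the highest peak was at chr2:98661401-98668850 (mm10), over the predicted genes Gm10800 and Gm10801, and the next was at chr14:19415401-19419750 over Gm21738. Another, chr9:2999951-3038700, spanned 9 predicted genes including Gm10722 and Gm10717, and it held 3.06 and 3.50% of the signal in H3WT and 3.87 and 3.90% in H3R26C. It was the most repetitive of these places, with 95.7% of its bases soft-masked, and shifted by 234 bases it matched itself at 70.9% of positions. The sequence below is 1 repeat length from its middle (chr9:3019326-3019559, plus strand, RefSeq GRCm38.p6), with CpG in capitals, shown as the clearest tandem repeat among the strong peaks of both genotypes.
chromosome 9 repeat: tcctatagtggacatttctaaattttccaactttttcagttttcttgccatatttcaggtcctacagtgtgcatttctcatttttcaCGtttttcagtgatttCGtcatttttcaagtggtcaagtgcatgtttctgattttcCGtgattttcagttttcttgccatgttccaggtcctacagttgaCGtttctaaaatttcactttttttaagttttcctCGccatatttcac
Reads from such copies cannot be placed on a single one, and the HA level of a gene inside this repeat is uncertain.

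To compare lists of such different length, the 15344 peaks with the highest total signal were taken from each library, the number in the smallest list. At these top peaks H3R26C lay less often in gene bodies and more often between genes than H3WT, and the share at start sites overlapped between the genotypes. Classed by midpoint, peaks in bodies of protein-coding genes made up 48.4 and 47.1% in H3WT and 40.7 and 43.2% in H3R26C. Intergenic peaks made up 48.4 and 48.5% in H3WT and 55.1 and 51.4% in H3R26C. Both H3R26C libraries lay outside the H3WT values for these 2 classes, by -5.77 and 4.82 percentage points on average (exact permutation test, two-sided, p = 0.333 for each, the smallest p that 2 against 2 libraries allow). Within 1 kb of a start site were 3.17 and 4.47% in H3WT and 4.13 and 5.41% in H3R26C. These values overlapped (exact permutation test, two-sided, p = 0.667), and all were above the 2.08% of the autosomes that such windows take up. Gene bodies take up 38.9% and intergenic DNA 59.1% of the autosomes, so the tagged histone of both genotypes was listed more often in genes than their length would give.

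The gene-body share was lower in all 8 mutant libraries than in H3WT. The 8 mutant libraries together differed from the 2 H3WT libraries (exact permutation test, two-sided, p = 0.0222, the smallest this design allows), and H3R26C against the 6 other mutant libraries, which ranged from 38.5 to 45.7%, gave p = 0.893 in the same exact test. With all peaks in place of the top peaks the gene-body share was 48.4 and 47.1% in H3WT and 42.4 and 44.7% in H3R26C. The classing decided the direction at start sites. When any overlap with the window counted in place of the midpoint, 20.8 and 13.8% of top peaks in H3WT and 7.39 and 8.72% in H3R26C were at a start site, the opposite order, and the gene-body shares overlapped. Peak width moved with that count, since H3WT peaks were the widest, and by covered bases the start-site share was 3.54 and 4.36% in H3WT and 4.10 and 5.18% in H3R26C.

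**Figure D2:**
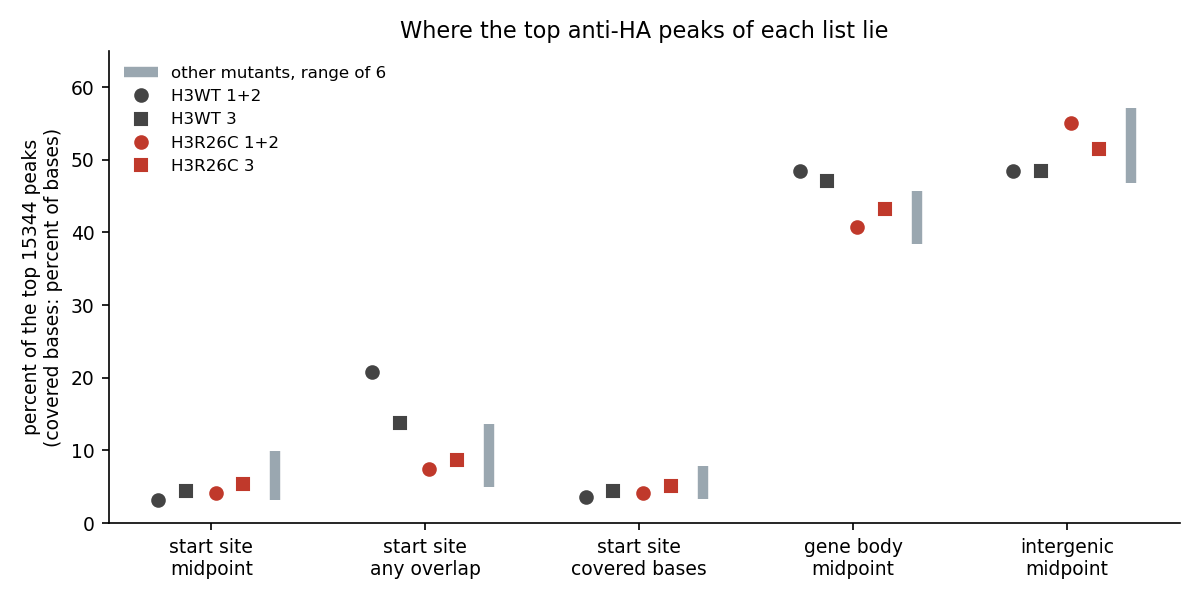
Percent of the top 15344 peaks of each library at start sites, in gene bodies and between genes (for covered bases, percent of bases), with H3WT in black, H3R26C in red, circles for replicates 1 and 2, squares for replicate 3 and a grey bar for the range of the 6 other mutant libraries. Gene-body shares were 48.4 and 47.1% in H3WT and 40.7 and 43.2% in H3R26C, while start-site shares changed order between midpoint and any overlap.

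The base composition of the top peaks was much alike. In the 500 bases around peak midpoints the GC content was 45.1 and 47.3% in H3WT and 46.6 and 47.8% in H3R26C. CpG numbered 10.5 and 11.9 per kb in H3WT and 11.4 and 12.5 per kb in H3R26C, and soft-masked repeats made up 23.2 and 22.5% and 23.1 and 21.7% of the bases. For each of these the genotypes overlapped (exact permutation test, two-sided, p = 0.667). Covered bases were shared no more within H3R26C than between genotypes. The share of bases common to both lists, as a part of the bases in either, was 0.296 for the H3WT pair, 0.208 for the H3R26C pair and 0.146 to 0.215 across genotypes.

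In regions that carried H3K27me3 in both H3WT libraries, the tagged H3R26C was listed less often, relative to the whole of the autosomes, than tagged H3WT. The anti-H3K27me3 lists of the same genotypes gave 11741 regions called in both H3WT libraries, of which 7866 were called in all 4 and 1691 in H3WT only, and 1890 regions called in H3R26C only. The share of bases under top HA peaks in a set of regions was divided by the share of all autosomal bases under them, so that 1 means no difference from the autosomes. In regions called in both H3WT libraries the ratio was 1.70 and 1.57 in H3WT and 1.12 and 1.3 in H3R26C. In regions called in all 4 it was 1.56 and 1.33 in H3WT and 0.971 and 1.11 in H3R26C. Neither pair overlapped (exact permutation test, two-sided, p = 0.333). The other mutants ranged from 1.24 to 2.66 in the first set. The mutants together did not differ from H3WT by this test (exact permutation p = 0.933). The study compared HA read counts of H3R26C and H3WT at its differential H3K27me3 peaks. It reports no significant difference there beyond its fold-change cutoff. Those peaks were chosen in another way than the regions here, and that comparison of read counts was not repeated.

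The regions whose H3K27me3 peak was found in 1 genotype gave other levels of the tagged histone. Regions called in H3WT only had ratios of 3.35 and 4.29 in H3WT and 3.21 and 3.92 in H3R26C, which overlapped and were the highest of the 4 sets. Regions called in H3R26C only had ratios of 0.398 and 0.329 in H3WT and 0.431 and 0.515 in H3R26C, below 1 in each library. Thus HA peaks of both genotypes were dense where H3K27me3 was listed in H3WT alone and sparse where it was listed in H3R26C alone. These sets were called from the H3K27me3 lists of the same cells, and the part of list depth in placing a region in a set was not tested.

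Chromosomes differed in how many top peaks they held. Chromosome 11 held 8.69 and 12.2% of top peaks in H3WT and 15.5 and 18% in H3R26C, or 10.9 and 15.3 against 19.5 and 22.6 peaks per Mb. Chromosome 15 held 8.22 and 9.21% in H3WT and 12.9 and 11.5% in H3R26C. Both were higher in each H3R26C library than in either H3WT library, but the other mutants were also high there, at 10.9 to 17.3% for chromosome 11 and 9.40 to 20.5% for chromosome 15.

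Chromosomes 5, 8 and 12 set H3R26C apart from the other mutants before adjustment. Chromosome 5 held 3.71 and 3.65% in H3WT, 4.46 and 5.47% in H3R26C and 1.82 to 3.28% in the other mutants. Chromosome 8 held 6.58 and 8.34% in H3WT, 5.37 and 6.42% in H3R26C and 8.22 to 12% in the others. Chromosome 12 held 4.46 and 4.33% in H3WT, 2.54 and 2.91% in H3R26C and 3.97 to 5.62% in the others. For each of the 3, H3R26C against the 6 other mutant libraries gave p = 0.0357 by the exact permutation test, two-sided, the smallest it allows, and 0.238 after Benjamini-Hochberg adjustment over 20 chromosomes. The autosomes together held 97.9 and 98.3% in H3WT and 97.3 and 98.2% in H3R26C, and the X chromosome 2.09 and 1.60% against 2.54 and 1.69%, both with overlap.

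**Figure D3:**
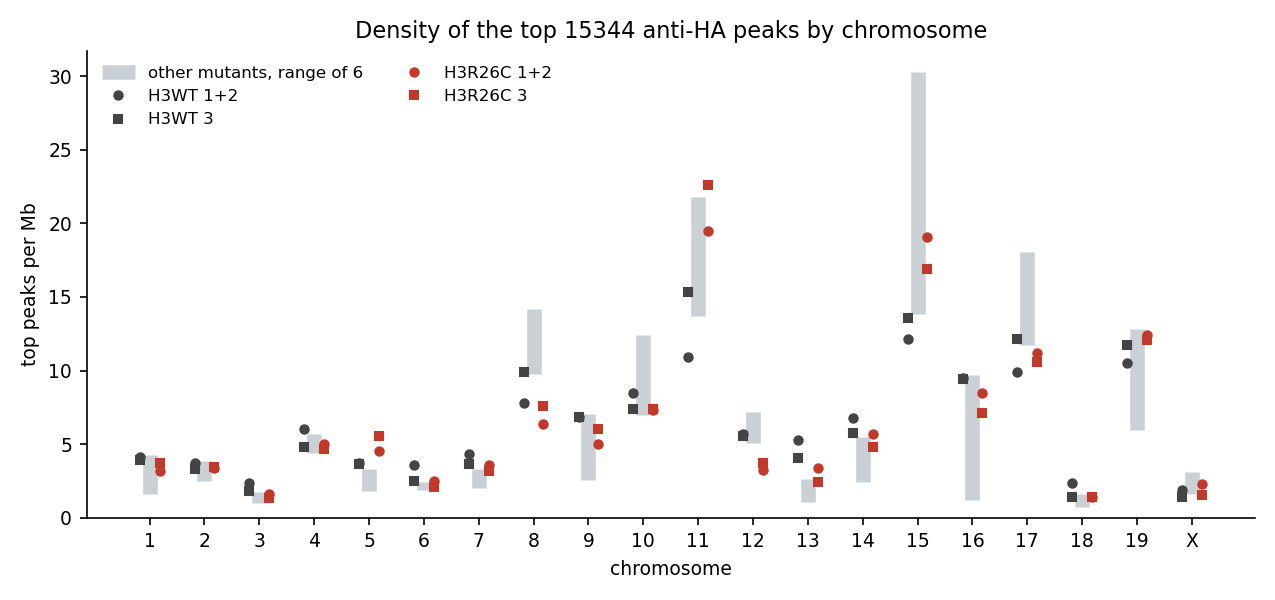
Top peaks per Mb on each chromosome, H3WT in black and H3R26C in red (circles for replicates 1 and 2, squares for replicate 3), with grey bars for the range of the 6 other mutant libraries. On chromosome 11 the H3R26C libraries had 19.5 and 22.6 peaks per Mb and the H3WT libraries 10.9 and 15.3, and on chromosome 8 both H3R26C libraries lay below the grey bar.

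Start sites that carried a top peak in every library of 1 genotype and in none of the other were far fewer for H3R26C than for H3WT. Of 21938 protein-coding genes, 38 (0.173%) had a top peak within 1 kb of the start site in both H3R26C libraries only, 720 (3.28%) in both H3WT libraries only and 457 (2.08%) in all 4. These counts followed the selection of peaks. With all peaks they were 200, 551 and 959, and with equal covered length, where every library gave 42.9 Mb of its best peaks, they were 409, 62 and 253, so that the order of the genotypes turned. Without H3WT 1+2 the main counts were 93, 1106 and 516. For H3WT 1+2 the top peaks are the full list, so only H3WT 3 could add peaks, and its full list had one at 27 of the 38 genes (71.1%). Of the 720 genes, 432 had a peak in at least 1 full H3R26C list.

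**Figure D4:**
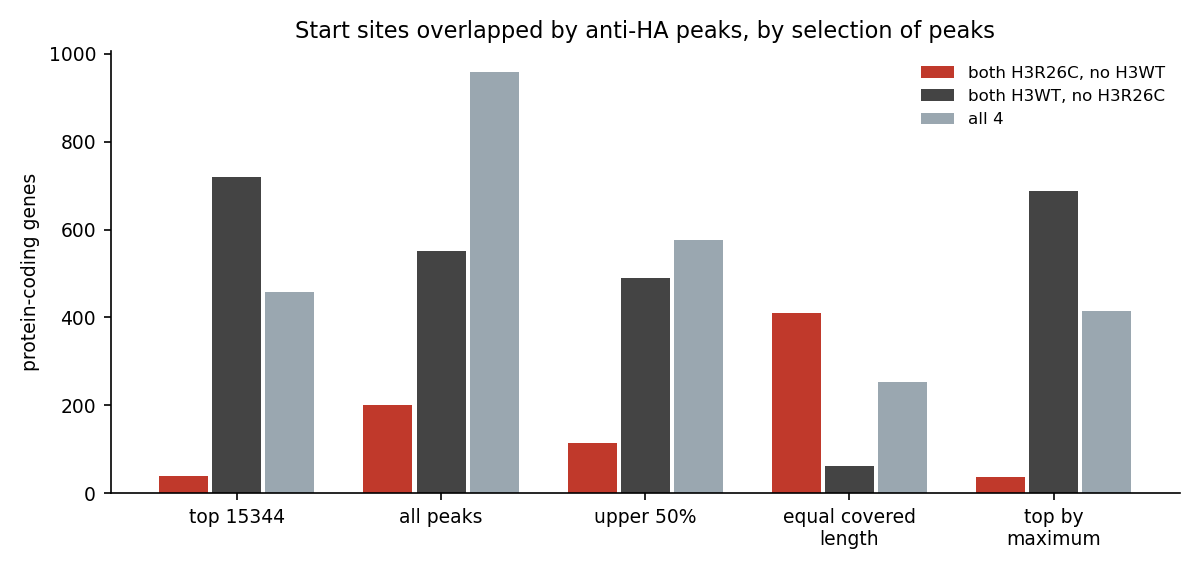
Number of protein-coding genes whose start site was overlapped by a peak in both H3R26C libraries and no H3WT library (red), in both H3WT libraries and no H3R26C library (black) or in all 4 (grey), for 5 ways to select peaks. With the top 15344 peaks the counts were 38, 720 and 457, and with equal covered length 409, 62 and 253.

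The 38 start sites found only in H3R26C were led by Gm10486 on the X chromosome, Hils1, a spermatid-specific linker histone, on chromosome 11, and Mcat, an enzyme of mitochondrial fatty acid synthesis, on chromosome 15. Next by rank were Trim56, a ubiquitin ligase, on chromosome 5, Btbd35f25 on X, Slc26a11 and Sgsh on chromosome 11, and Atox1, a copper chaperone, on chromosome 11. Slc26a11, a sulfate transporter, and Sgsh, a lysosomal sulfatase, start next to each other on opposite strands and shared 1 peak. Peaks at these 8 genes were 1.25 to 3.0 kb wide. Of the 38 genes, 11 (28.9%) were on chromosome 11, 8 on chromosome 15 and 6 on chromosome 17, against 7.47, 3.58 and 4.81% of all genes. The start sites found in all 4 libraries had 27.1, 14.2 and 6.56% on these chromosomes and those found only in H3WT had 14.2, 10.1 and 7.92%. No other mutant library had a top peak at 9 of the 38, Trim56, Slc26a11 and Sgsh among them, and Gm10486 had one in 4 of the 6. The 120 bases before the start of the first 2 genes by rank are shown with CpG in capitals (RefSeq GRCm38.p6, chrX:35067264-35067383 and chr11:94967473-94967592, both plus strand).
Gm10486: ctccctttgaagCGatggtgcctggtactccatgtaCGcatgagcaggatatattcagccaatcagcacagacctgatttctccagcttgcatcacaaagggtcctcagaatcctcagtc
Hils1: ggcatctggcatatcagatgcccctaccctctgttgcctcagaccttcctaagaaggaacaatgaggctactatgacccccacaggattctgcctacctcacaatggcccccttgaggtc
The stretch before Hils1 held no CpG. The CpG content of promoters was not compared for this group, since 29 of the 38 genes had a promoter entry, too few for that check.

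Start sites found only in H3WT were covered by very wide peaks. The first by rank were Cyba, a subunit of the NADPH oxidase, and Zfpm1, a cofactor of GATA factors, both on chromosome 8, Serpinb6b, a protease inhibitor, on chromosome 13, and Tex19.1, a germ cell gene, on chromosome 11. Llgl2, a cell polarity gene, Grin2c, a glutamate receptor subunit, and Fdxr, a mitochondrial reductase, all on chromosome 11, and Rrp1b, a ribosome biogenesis gene, on chromosome 17 completed the set. Their H3WT peaks were 19.9 to 128 kb wide, and Grin2c and Fdxr lay in the same peak. No other mutant had a top peak at 286 of the 720 genes. The median promoter of the 720 held 15 CpG in 300 bases and that of the 457 genes found in all 4 held 8, against 14 over all genes with an entry. Of those 457 genes, 12 lay in the 18 places above, Gm10800, Gm21738 and Gm11168 first, and after them came Sfi1, a centrosome gene, Gm15319 and Speer4d.

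The signal of each gene was then fitted, from 1 kb before its start to its end, with the values of a library scaled so that the median gene with signal in all 4 was 1. Of 21938 genes, 6875 had signal in both libraries of at least 1 genotype, 4028 in all 4, 448 in H3R26C only and 421 in H3WT only. No gene passed an adjusted p of 0.05 in either direction (0%; limma, lowest adjusted p 0.0694, shared by 346 genes). Unadjusted p was under 0.05 for 974 genes higher (14.2%) and 543 lower (7.90%) in H3R26C, a split that turned to 333 and 1175 when libraries were scaled to total signal. That scaling moved the median log2 difference of all genes from 0.09 to -0.27.

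The genes with the lowest unadjusted p, none of which passed, were mostly listed in 1 genotype. S100a2, a calcium-binding protein gene, had no peak in either H3WT library and scaled signals per kb of 5.20 and 5.03 in H3R26C. C730034F03Rik also had none in H3WT and 3.44 and 4.49 in H3R26C. On the other side Fam243 had 2.31 and 2.65 in H3WT and no peak in H3R26C, and Gm12355 had 2.20 and 3.39 and none. Tex19.1 had 2.44 and 3.11 in H3WT, no peak in H3R26C 1+2 and 0.0475 in H3R26C 3. Isx, an intestinal homeobox gene, and Sertad4 had 0.249 and 0.235, and 0.246 and 0.230, in H3WT and no peak in H3R26C. For genes listed in 1 genotype the level of the other was below its list's threshold, so no fold is given.

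Among the 4028 genes with signal in all 4 libraries, 20 were higher in H3R26C (0.497%) and 0 lower at an adjusted p of 0.05 (limma). Over the same genes, 1267 (31.5%) had both H3R26C values above both H3WT values and 748 (18.6%) had both below. Unadjusted p was under 0.05 for 616 genes higher and 178 lower. The 20 genes kept the sign but none passed under total-signal scaling (limma adjusted p 0.146 to 0.365). With the same number of top peaks from each library, 19 of the 20 had signal in all 4 and 18 passed. In that fit, 139 genes were higher and 8 lower of 1817. By chromosome, 7 of the 20 were on chromosome 5, 7 on chromosome 15, 4 on chromosome 11 and 2 on chromosome 10.

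The gene with the largest difference was Gm11032, a predicted gene on chromosome 11, with 0.0427 and 0.130 in H3WT and 6.19 and 4.26 in H3R26C, a log2 difference of 4.01 ± 0.449 (SE; limma adjusted p = 0.00313). Its start site was also among the 38 above, and 4 of the 6 other mutant libraries had no signal there. Tubd1, delta-tubulin of the centriole, on chromosome 11, had 1.38 and 1.86 in H3WT and 7.27 and 6.65 in H3R26C, a log2 difference of 1.96 ± 0.306 (limma adjusted p = 0.0236). Apol6, an apolipoprotein L gene, on chromosome 15, had 1.70 and 1.97 in H3WT and 7.45 and 6.12 in H3R26C, a log2 difference of 1.75 ± 0.299 (limma adjusted p = 0.0308). The 6 other mutant libraries ranged from 3.42 to 6.92 at Tubd1 and from 3.85 to 6.73 at Apol6, above both H3WT values, below the H3R26C 1+2 value and around the H3R26C 3 value.

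Further genes that passed were Mettl7b, Hba-a1, Upk3bl, AW822073, Ppp1r27, Ttll1 and Eppk1. Mettl7b, a methyltransferase gene on chromosome 10, had 1.80 and 1.22 in H3WT and 5.91 and 5.36 in H3R26C, and the 6 other mutant libraries reached 3.85 at most. Upk3bl, a uroplakin-like gene on chromosome 5, had 1.55 and 1.21 in H3WT and 4.89 and 4.96 in H3R26C, and the others reached 3.14. Hba-a1, an alpha globin gene with a near-identical copy nearby, had 1.97 and 2.66 in H3WT and 6.82 and 7.61 in H3R26C, and its signal cannot be told from that of the copy with certainty. The others reached 6.42 at Hba-a1. Eppk1, a cytolinker of epithelial cells, had 2.90 and 5.09 in H3WT and 11.8 and 10.5 in H3R26C. The other mutant libraries ranged from 7.69 to 13.5 at Eppk1, 19.6 to 86.4 at AW822073, 2.63 to 12.2 at Ppp1r27 and 3.81 to 10.9 at Ttll1. At each of these genes that range spans both H3R26C values. At every gene named in this paragraph both H3R26C libraries lay above both H3WT libraries. The log2 differences of Mettl7b, Upk3bl, Hba-a1 and Eppk1 were 1.76, 1.67, 1.55 and 1.47 (limma adjusted p = 0.0421, 0.0494, 0.0475 and 0.0495).

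The largest differences among genes with signal in all 4 that did not pass were on both sides. H3f3b, which encodes the histone variant H3.3, had 0.231 and 0.329 in H3WT and 3.59 and 1.48 in H3R26C (log2 difference 2.29 ± 0.507, limma adjusted p = 0.0566). Gga1, a Golgi sorting adaptor, had 0.285 and 2.26 in H3WT and 5.24 and 5.46 in H3R26C, and Gm10188 had 0.468 and 0.515 against 1.96 and 5.79. On the lower side Cope, a coatomer subunit, had 2.37 and 3.22 in H3WT and 0.555 and 0.632 in H3R26C (log2 difference -1.84 ± 0.412, limma adjusted p = 0.0566). Tekt4, a tektin of the sperm tail, had 1.89 and 1.38 against 0.303 and 0.235. Chst12, a sulfotransferase, had 1.02 and 1.03 against 0.00991 and 0.249, and Cdip1 had 1.18 and 0.991 against 0.170 and 0.156. Adm, the adrenomedullin gene, had 2.19 and 2.96 in H3WT and 0.0494 and 1.85 in H3R26C, so that its low mean in H3R26C came from 1 library.

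A group of 6 of the 20 genes lay in the Speer cluster at chr5:14910122-15657059 (mm10). Speer genes are copies of a testis-expressed, glutamate-rich gene family. This window and the keratin window below were chosen after their values were seen. All 9 protein-coding genes of the cluster had signal in all 4 libraries. In 7 both H3R26C values were above both H3WT values, as in 31.5% of the 4028 genes. The median log2 difference was 1.38, with 0 of 9 below 0, against a median of 0.12 over the 4028 genes. Speer4d had 7.93 and 9.51 in H3WT and 25.2 and 24.9 in H3R26C, a log2 difference of 1.5 ± 0.219 (limma adjusted p = 0.0227). Gm9758 had 1.02 and 1.98 in H3WT and 9.30 and 6.98 in H3R26C, a log2 difference of 2.30 ± 0.345 (limma adjusted p = 0.0227). Gm17019 had 1.62 and 1.83 in H3WT and 7.22 and 6.70 in H3R26C, a log2 difference of 1.87 ± 0.295 (limma adjusted p = 0.0236). Gm21190, Gm21083 and 4930572O03Rik passed as well, with log2 differences of 1.38, 1.41 and 1.35 (limma adjusted p = 0.0404, 0.0292 and 0.0308). Speer4e and Gm21149 overlapped between the genotypes, with 4.14 and 0.946 against 3.18 and 3.31, and 0.660 and 1.86 against 3.82 and 1.54.

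The Speer copies were high in the other mutants too. Speer4d ranged from 15.0 to 67.9 in their 6 libraries, which spans the H3R26C values, and Gm9758 from 3.88 to 14.3. Part of their promoters was compared. From the 250 bases before the start of Speer4d, the 120 best matched by the other copies were taken (chr5:15618925-15619044, plus strand, RefSeq GRCm38.p6). They are shown with the best-matching 120 bases of the 7 other copies that had a promoter entry. Capitals mark bases that differ from Speer4d.
Speer4d: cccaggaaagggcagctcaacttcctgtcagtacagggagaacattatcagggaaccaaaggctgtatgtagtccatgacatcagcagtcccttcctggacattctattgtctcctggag
Gm9758: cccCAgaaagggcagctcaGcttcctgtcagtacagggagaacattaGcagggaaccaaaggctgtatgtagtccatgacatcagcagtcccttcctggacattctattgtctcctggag
Speer4e: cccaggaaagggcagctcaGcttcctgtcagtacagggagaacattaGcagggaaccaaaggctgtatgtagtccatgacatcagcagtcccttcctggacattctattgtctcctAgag
Gm10354: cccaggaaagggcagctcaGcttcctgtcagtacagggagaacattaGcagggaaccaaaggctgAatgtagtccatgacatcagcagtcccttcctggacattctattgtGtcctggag
Gm17019: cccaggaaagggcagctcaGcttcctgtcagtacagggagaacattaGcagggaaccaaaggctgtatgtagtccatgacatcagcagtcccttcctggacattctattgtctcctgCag
Gm21149: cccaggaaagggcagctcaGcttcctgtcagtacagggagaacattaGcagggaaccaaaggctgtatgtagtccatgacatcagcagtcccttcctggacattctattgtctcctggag
Gm21190: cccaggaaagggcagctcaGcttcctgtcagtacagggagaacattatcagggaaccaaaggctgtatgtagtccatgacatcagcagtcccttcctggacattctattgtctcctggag
Gm21083: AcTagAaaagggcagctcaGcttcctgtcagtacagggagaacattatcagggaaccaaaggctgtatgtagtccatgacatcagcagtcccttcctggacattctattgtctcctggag
Each copy differed from Speer4d at 1 to 4 of these 120 bases, which were chosen for their match. Identity over the rest of the genes was not measured. Whether the signal of one copy can be told from that of another was not tested. The 6 genes that passed are therefore not counted as 6 separate observations.

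The second group of neighbours was the stretch from Krt80 to Sp7 at chr15:101347444-102367182 (mm10), which holds the type II keratin genes and the genes next to them. Of its 45 protein-coding genes, 41 were tested and 29 had signal in all 4 libraries. Of the 29, 18 had both H3R26C values above both H3WT values, and 4 passed (Krt80, Soat2, Gm9918 and Sp7). Over the 4028 genes with signal in all 4, 31.5% had both above and 0.497% passed. The median log2 difference of the 29 was 0.78, with 8 below 0, against 0.12 over the 4028 genes. Krt80, an epithelial keratin, had 2.58 and 3.41 in H3WT and 9.27 and 8.39 in H3R26C, a log2 difference of 1.5 ± 0.275 (limma adjusted p = 0.0421). Sp7, the osterix factor of bone-forming cells, had 2.94 and 3.75 in H3WT and 8.92 and 9.22 in H3R26C, a log2 difference of 1.38 ± 0.267 (limma adjusted p = 0.0494). Soat2, a cholesterol acyltransferase, had 2.29 and 3.32 in H3WT and 8.45 and 7.77 in H3R26C, and Gm9918 had 3.36 and 4.12 against 11.3 and 9.86.

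Not every gene of the stretch was higher. Rarg, a retinoic acid receptor, had 0.541 and 0.814 in H3WT and 3.15 and 2.49 in H3R26C, and Krt78 had 2.49 and 5.14 against 9.71 and 9.02, and neither passed (limma adjusted p = 0.0566 for both). Krt84 and Krt79 were lower in both H3R26C libraries, at 0.438 and 0.825, and 1.47 and 1.25, against 1.29 and 1.65, and 2.49 and 2.60, in H3WT. Some tested genes outside the 29 also did not overlap. Krt77 had 1.62 and 1.49 in H3WT and 0 and 0.110 in H3R26C, and Gm5414 had 1.70 and 0.880 and no peak. Higher were Gm49425, with no peak in H3WT and 3.16 and 2.86 in H3R26C, and Krt2, with 0 and 0.428 against 0.786 and 0.621. The keratins Krt81, Krt86, Krt83, Krt90, Krt4 and Krt18 overlapped between the genotypes. Sp7 ranged from 6.21 to 9.97 in the 6 other mutant libraries and Krt80 from 4.69 to 10.4, above both H3WT values in each case.

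**Figure D5:**
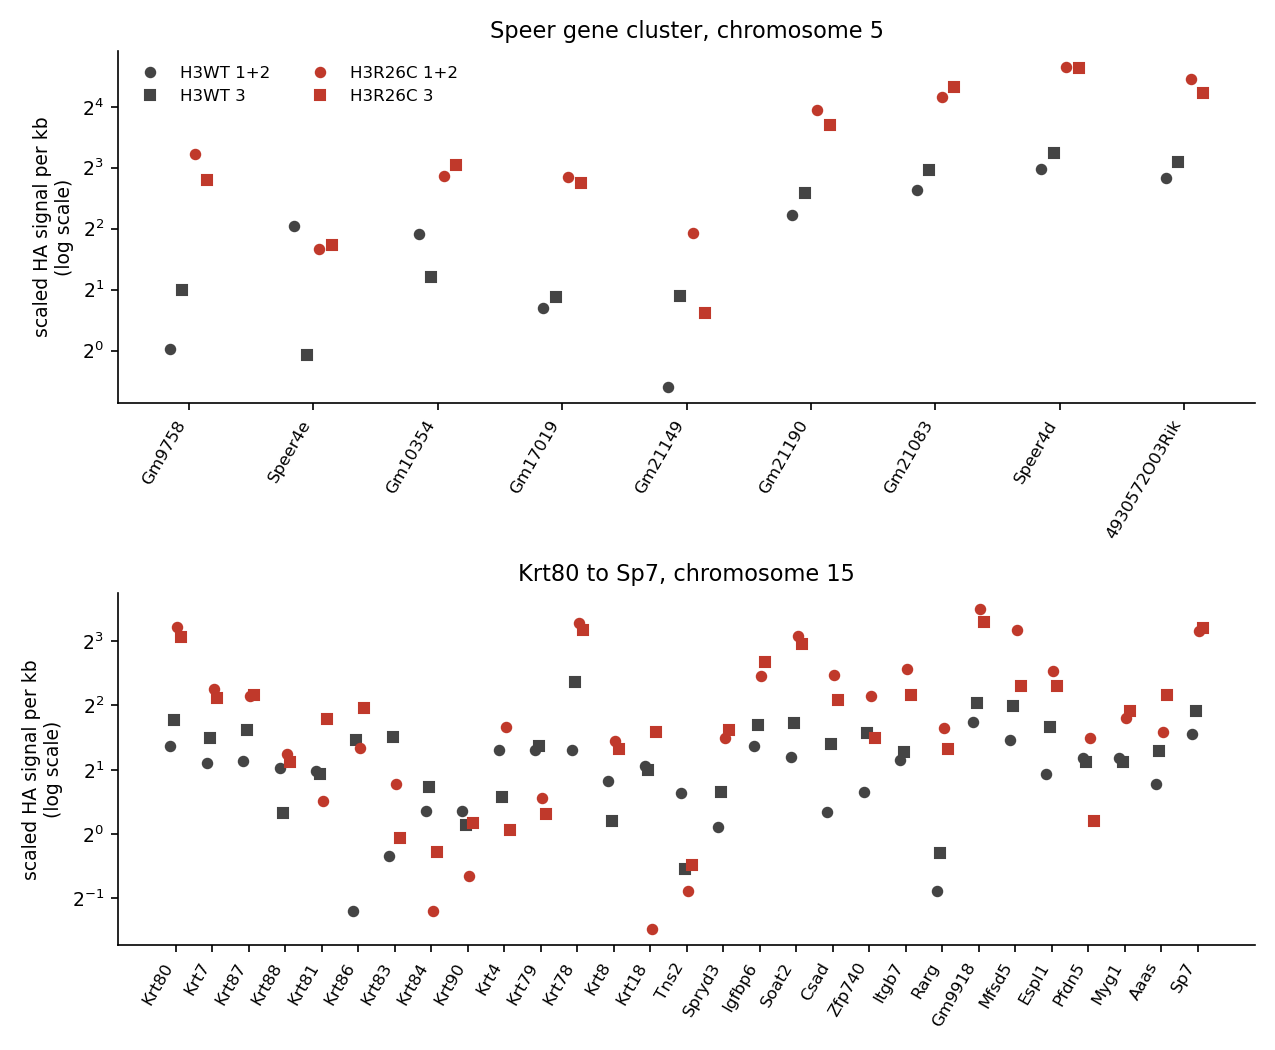
Scaled HA signal per kb of gene on a log scale for the genes with signal in all 4 libraries in the Speer cluster of chromosome 5 (above) and from Krt80 to Sp7 on chromosome 15 (below), in genome order, H3WT in black and H3R26C in red, circles for replicates 1 and 2 and squares for replicate 3. In the Speer cluster 7 of 9 genes had both H3R26C points above both H3WT points, and in the keratin stretch 18 of 29 did. Of all 4028 genes with signal in all 4, 31.5% did.

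In bins of 100 kb, which also cover DNA between genes, 629 of 7686 bins were higher (8.18%) and 121 lower (1.57%) in H3R26C at an adjusted p of 0.05 (limma). Of the higher bins 556 had no peak in H3WT and of the lower bins 116 had none in H3R26C. Among the 4652 bins with signal in all 4 libraries, 436 were higher (9.37%) and 88 lower (1.89%). These calls depended on the fit. They fell to 0 in both directions with the same number of top peaks or a pseudocount of 1, and scaled to total signal the bins with signal in all 4 gave 46 higher and 210 lower. The higher bins were 98 of 476 with signal in all 4 on chromosome 11, 61 of 362 on chromosome 15, 38 of 214 on chromosome 5 and 22 of 103 on X. Chromosome 8 had 10 higher and 22 lower of 260. Over all bins tested the median log2 difference was 0.25. It was 0.51 on chromosome 15 and 0.74 on chromosome 5, which hold the 2 stretches above.

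The bins named by lowest p held these genes. The bin chr11:86500001-86600000 with Tubd1, Vmp1, an autophagy gene, and Rps6kb1, the S6 kinase, had scaled signals of 1.29 and 1.42 in H3WT and 5.26 and 6.43 in H3R26C, a log2 difference of 1.92 ± 0.244 (limma adjusted p = 0.0237). The other mutants ranged from 2.70 to 3.91 there. The bin chr5:53500001-53600000 with Rbpj, the nuclear effector of Notch, had 1.25 and 1.74 in H3WT and 6.42 and 6.37 in H3R26C, a log2 difference of 1.94 ± 0.254 (limma adjusted p = 0.0237). The others ranged from 0.380 to 2.89, below both H3R26C values. The bin chr7:115300001-115400000, which holds no protein-coding gene, had 2.65 and 3.03 in H3WT and 0.123 and 0.118 in H3R26C, a log2 difference of -3.06 ± 0.389 (limma adjusted p = 0.0237), with 0.223 to 1.76 in the others.

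The other 3 named bins rested on weak signal in 1 genotype. The bin chr4:77400001-77500000 within Ptprd, a receptor phosphatase of neurons, had no peak in H3WT and 0.172 and 0.169 in H3R26C. The bin chr10:61900001-62000000 with Col13a1, a transmembrane collagen, had 0.204 and 0.201 in H3WT and no peak in H3R26C. The bin chr9:45000001-45100000 with Cd3e, a T-cell receptor subunit, Mpzl2, Mpzl3 and Jaml had 0.157 and 0.143 in H3WT and no peak in H3R26C. All 3 had the same limma adjusted p of 0.0237, which 390 bins shared.

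Against the mean of the other mutants, H3R26C was higher at 49 of 8977 genes (0.546%) and lower at 3 (0.0334%) at an adjusted p of 0.05 (limma). Of the 49 genes, 42 had no signal in any of the 6 other libraries, and 28 had signal in at least 1 H3WT library. Among the 49 were Eif1, a translation initiation factor, with 2.20 and 1.63 in H3R26C and no peak in the 6, and Junb, an AP-1 factor, with 1.05 and 0.463 and no peak in the 6. The lower genes were Gm4302, Ccl9, a chemokine, and Commd5, none with a peak in H3R26C, and Ccl9 had 0.945 to 4.72 in the others. The values in these sentences were scaled over the 8 mutant libraries alone. Among the 2796 genes with signal in all 8 mutant libraries, 0 were higher or lower by limma, and unadjusted p was under 0.05 for 168 higher and 283 lower. Eif1 and Junb were chosen after their values were seen.

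Gene groups related to the tissue and to PRC2 were counted in the same fit, and none of their members passed over all tested genes. Of 39 Hox genes, the clustered developmental factors silenced by PRC2, 31 had an H3K27me3 peak at the start in each of the 4 libraries, and 5 had enough HA signal to be tested. Hoxc9 had no peak in H3WT and 0.797 and 0.839 in H3R26C, and Hoxc6 none and 0.871 and 0.486. Hoxc5, whose annotated span contains Hoxc9 and Hoxc6 and so shares their peaks, had 0 and 0.0912 against 0.653 and 0.525. These 3 entered the fit through H3R26C alone, and the 2 with signal in all 4, Hoxc4 and Hoxb3, overlapped between the genotypes. No Hox start site was in any of the 3 groups of recurrent genes above.

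PRC2 subunits and mesenchymal genes gave few tested members. Of 11 PRC2 genes 4 were tested. Ezh1, a catalytic subunit, had 2.10 and 2.27 in H3WT and 3.95 and 3.26 in H3R26C (limma adjusted p = 0.214), Suz12 had no peak in H3WT and 0.187 and 0.125 in H3R26C, Jarid2 had 0.0663 and 0.0808 against 0.122 and 0.164, and Phf1 had 1.46 and 1.41 against 1.26 and no peak. Of 18 mesenchymal genes 6 were tested and none had an H3K27me3 peak at the start in any library. Col1a1, the main collagen of these cells, had 0 and 0.297 in H3WT and 1.35 and 1.14 in H3R26C, and Pdgfrb, a growth factor receptor, had 0.738 and 0.734 against 1.36 and 1.29. Cd44, a surface glycoprotein, had no peak in H3WT and 0.0728 and 0.127 in H3R26C. Sparc, a matrix protein, had 0 and 0.153 against 0.524 and 0.484. Col1a1, Cd44 and Sparc entered the fit through H3R26C alone. Eng had 1.40 and 2.16 against 2.82 and 2.22. Eng and Pdgfrb, the 2 with signal in all 4, had both H3R26C values above both H3WT values, as did 31.5% of the 4028 genes. Acta2, smooth muscle actin, had 0.603 and 0.621 in H3WT, no peak in H3R26C 1+2 and 0.844 in H3R26C 3. The samples used here hold no expression values, and the RNA-seq that the study reports was not used. The labelled cell type was therefore not checked against its markers.

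No lineage or control gene passed in the fit over all tested genes. Of 12 bone genes 5 were tested, and Sp7 passed only among genes with signal in all 4, while Runx2, the early bone factor, had 0.647 and 0.428 in H3WT and 0.363 and 0.347 in H3R26C. Of 12 fat genes 3 were tested, and Pparg, the master factor of fat cells, had 0.146 and 0.148 against 0.0953 and 0.0883. Of 12 cartilage genes 5 were tested, and Col2a1, the cartilage collagen, had 1.99 and 2.36 against 4.01 and 3.92, while Col11a2, a minor cartilage collagen, had 1.55 and 1.41 against 0 and 0.222. Of 13 muscle genes 3 were tested, with a median log2 difference of -0.46 against 0.09 over the 6875 genes. Of 15 housekeeping genes 3 were tested and none had signal in all 4. None of 67 replication-dependent histone genes could be tested. Of 8 blood and epithelial markers 5 were tested, and Krt14, a basal keratin, had no peak in H3WT and 3.18 and 0.855 in H3R26C.

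Of 11 H3 chaperone genes 5 were tested, with a median log2 difference of 0.28. Cabin1, a subunit of the HIRA complex, had 0.960 and 0.738 in H3WT and 0.333 and 0.278 in H3R26C, and the other 4, Nasp, Mcm2, Ubn1 and Hira, overlapped between the genotypes. Of 9 arginine methyltransferase genes 3 were tested, with a median of -0.51. Prmt7 had 1.40 and 1.72 in H3WT and 0.770 and 0.873 in H3R26C. Of 14 neuronal genes 8 were tested, with a median of 0.06, and Rbfox3, a marker of mature neurons, had 1.31 and 1.84 in H3WT and 0.953 and 0.843 in H3R26C. In these 3 groups no member passed. Of their 9 genes with signal in all 4, none had both H3R26C values above both H3WT values and 4 had both below, where 31.5 and 18.6% of the 4028 genes did.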

How the data were processed

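The authors aligned single-end CUT&RUN reads to mm10 with Rsubread, called peaks with SEACR 1.3 (stringent, norm) and annotated them with ChIPseeker 1.28.3. The deposited lists give total and maximum signal per peak, coverage in whole numbers not scaled to depth, on a grid of 50 bp. Since no counts were used, the spread between libraries is the only measure of precision. The study calls its replicates biologic, and the source of the identical lists of replicates 1 and 2 was not tested. Library values were compared by exact permutation tests, two-sided. Signal per kb of gene or per bin of 100 kb was scaled to the median feature, and log2(signal + 0.25) was fitted with limma 3.58.1 (R 4.3.3; eBayes with trend, Benjamini-Hochberg adjustment). The fit was tested on simulated data drawn from genes with signal in every library of the fit. Features without a peak in a genotype were not part of that test. Genes came from the GENCODE annotation of mm10, and genome and promoter sequence from RefSeq GRCm38.p6. The numbers shared by samples did not pair them, and all lists of a genotype with identical values counted once.

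Named genes were the 5 per direction with the lowest unadjusted p where none passed, the 5 per direction with the largest difference among genes with signal in all 4, the 8 best-ranked recurrent start sites per kind, and the 3 bins per direction with the lowest p. Members and gene lists were chosen with earlier results of these data known, and other named genes after their values were seen. Alternatives covered the peak selection, pseudocount, scaling, filter, bin size and each left-out library. The study modelled read counts with DESeq2, which was not run here.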

Additional observations from a re-analysis of the deposited data

How the results depend on the processing

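Differences below are H3R26C minus H3WT, and counts are of genes or bins past the threshold unless stated. Counting any overlap gave -9.24 points at start sites, 0.179 in gene bodies and 9.07 between genes, and all peaks gave -4.17 in gene bodies. The autosome share differed by -1.25 with equal covered length and -1.60 with top peaks by maximum. Equal covered length gave -0.447 for GC percent, -0.203 for CpG per kb and -0.190 for the ratio over H3K27me3 regions called in both H3WT, and top peaks by maximum gave 0.779 for soft-masked percent. Recurrent start sites in H3R26C only numbered 200 with all peaks, 114 with the upper 50%, 409 with equal covered length and 22 with 50% of the window covered. In H3WT only they numbered 62 with equal covered length. In all 4 they numbered 959 with all peaks, 253 with equal covered length, 258 with 50% of the window covered and 792 with a window of 2.5 kb.

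In the gene fit, where none passed, calls were 238 lower and 357 higher with a pseudocount of 0.05, 20 higher with signal in every library, 406 and 83 with the same number of top peaks, 30 and 27 with all 5 genotypes and 960 and 1542 with all 3 labelled replicates, where identical lists shrink the spread. Against 121 lower and 629 higher bins, a pseudocount of 0.05 gave 256 lower, all 5 genotypes 4 and 26, bins of 50 kb 258 lower and all 3 labelled replicates 1083 and 2513. A pseudocount of 1, no filter, the same number of top peaks, eBayes without trend and bins of 500 kb gave 0 in both directions. Against other mutants, 3 lower and 49 higher became 6 lower with a pseudocount of 0.05 or top peaks, 13 lower without trend, 1 lower by covered share, 0 lower with total scaling, 0 and 0 with signal in every library or no filter, and 1575 and 782 with all labelled replicates.

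Settings chosen after seeing the data were these. With the same number of top peaks and signal in every library, the gene fit gave 8 lower and 139 higher, the bin fit 72 and 339, and the fit against other mutants 0 and 1. Total-signal scaling with that filter gave 210 lower and 46 higher bins and 0 and 0 against other mutants. Chromosome medians set to 0 gave 24 higher against other mutants.

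The replicate number as a block gave 0 lower and 0 higher genes, 331 lower and 1191 higher bins, and 3 and 40 against other mutants. Deviations of same-numbered libraries correlated at r = 0.0465 over 4028 genes, so the numbers were not taken as a pairing.

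Leaving out each library in turn gave ranges of 0.30 to 1.60 for the start-site share, -6.99 to -4.56 for gene bodies, 2.97 to 6.68 between genes, -0.805 to 0.0880 for autosomes, -0.15 to 0.691 for chromosome X, -0.108 to 2.06 for GC percent, -0.0001 to 1.42 for CpG per kb and -1.17 to 0.214 for soft-masked percent. Ratios over H3K27me3 regions ranged from -0.513 to -0.337 (called in both H3WT) and from -0.729 to 0.214 (H3WT only, 0.0935 without H3R26C replicates 1 and 2). Recurrent start sites ranged from 93 to 239 in H3R26C only, 920 to 2663 in H3WT only and 512 to 690 in all 4, because 1 library then sufficed. Calls ranged from 18 to 1187 lower and 105 to 1334 higher genes, 50 to 899 lower and 362 to 2778 higher bins, and 11 to 1549 lower and 77 to 347 higher genes against other mutants. The lone library was then assumed to vary like the others. The cause of these changes was not tested beyond the smaller number of libraries. With 2 libraries a genotype, of unequal list thresholds, differences in single genes below the level of the H3WT 1+2 list could not be measured.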

Other observations

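Of 1135 olfactory receptor genes 24 (2.11%) were tested, against 31.3% of all protein-coding genes, and 14 had signal in all 4 libraries, 5 with both H3R26C values above both H3WT values and 3 with both below. Over all 4028 genes with signal in all 4, the shares were 31.5 and 18.6%. Of 329 vomeronasal receptor genes 2 were tested. Of 386 zinc finger genes, many of which lie in clusters of related copies, 67 (17.4%) were tested, 42 had signal in all 4, 12 were higher and 5 lower in both H3R26C libraries, and the median log2 difference of the 67 was 0.06 against 0.09 over all tested genes. No member of these 3 families passed in the fit of H3R26C against H3WT (limma).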
